A study of Mus musculus with 6 samples.

Results

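Glucagon and 7 further genes that mark the alpha cell were followed through pancreatic islets of mice with and without Sec16b. The members were the rows of the deposited table whose gene symbol was Gcg, Irx1, Irx2, Ttr, Slc7a2, Slc38a5, Dpp10 or Kcnj3, which made 8 of 18437 genes. All 8 were found, and all 8 reached the level required for testing, a value of 10 or more in 3 or more libraries. Bulk RNA sequencing of whole islets was done in male mice aged 30 weeks, with 3 libraries from Sec16b+/+ animals (wild type) and 3 from Sec16b-/- animals (knockout). Sec16b encodes a scaffold of the exit sites of the endoplasmic reticulum (ER), and the design compares islet RNA with and without it. The labels do not give the tissue range of the deletion, nor whether a library was 1 animal or a pool, so the spread between libraries may be partly technical.

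Alpha cells are the glucagon-secreting cells of the islet, where they lie beside the more numerous beta cells that secrete insulin and the fewer delta and PP cells. Gcg encodes a precursor that the convertase Pcsk2 cuts to glucagon in these cells, and the hormone raises blood glucose and drives amino acid breakdown by the liver. Amino acids in turn stimulate alpha cells, which carry transporters for arginine and glutamine, and Gi-coupled inputs such as somatostatin hold them back in part through potassium channels. In bulk libraries fewer alpha cells and less RNA per alpha cell cannot be told apart.

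The libraries held between 22071895 and 26806787 reads. Values are normalized counts, that is, reads of a gene divided by a size factor of the library, and they are listed for replicates 1, 2 and 3 of a group in that order. Sec16b itself was at 1655, 773 and 1786 (wild type) against 553, 433 and 750 (knockout), a log2 fold change of −1.22 (SE 0.35, limma adjusted p = 0.993). Its transcript was still present in the libraries labelled knockout, with 1 wild type library near them. All 8 alpha cell genes and all 10 beta cell markers were measured in all 6 libraries. RNA of cells from outside the islet was also present. The summed value of 17 acinar genes, which mark the enzyme-secreting exocrine pancreas, was 1080725, 219283 and 689895 (wild type) against 3937462, 1528785 and 141725 (knockout). Knockout replicate 1 stood highest and knockout replicate 3 lowest. The 5 lymphocyte markers in the table had sums from 236 to 20316 in wild type and from 7050 to 143520 in knockout libraries, again highest in knockout replicate 1.

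Glucagon transcript was higher on average in knockout islets, but its libraries overlapped and it did not pass the test. Gcg was at 196522, 344316 and 157662 (wild type) against 306202, 635081 and 223263 (knockout). Knockout replicate 2 lay above every wild type library, while knockout replicates 1 and 3 lay below wild type replicate 2. The means were 232833 ± 98482.5 (SD, n = 3) for wild type and 388182 ± 217805 (SD, n = 3) for knockout. On the scale of log2(value + 1), the log2 fold change, knockout minus wild type, was 0.67 (SE 0.62), with an adjusted p of 0.993 in limma's test over all genes. The means differed 1.67-fold, less than the libraries of one genotype, which differed 2.18-fold across the wild type and 2.84-fold across the knockout libraries. The log2 fold change was 0.25 without knockout replicate 2, 1.002 with knockout replicate 3 dropped and 0.43 with wild type replicate 3 dropped.

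The window of 250 bases before the Gcg start is shown beside those of 3 further members, because some members followed Gcg from library to library and others did not. Of the members, 4 appear, from RefSeq on GRCm38.p6, read 5′ to 3′ along each gene. Irx2 and Kcnj3 kept a steady ratio to Gcg and Slc38a5 did not, as described with the values. Capitals mark TAAT (the core bound by many homeodomain proteins), TATTTAC and TGTTTAC (forms of the forkhead site) and TATAAA (the TATA box), each searched on both strands.
Gcg, chr2:62483654-62483903, minus strand: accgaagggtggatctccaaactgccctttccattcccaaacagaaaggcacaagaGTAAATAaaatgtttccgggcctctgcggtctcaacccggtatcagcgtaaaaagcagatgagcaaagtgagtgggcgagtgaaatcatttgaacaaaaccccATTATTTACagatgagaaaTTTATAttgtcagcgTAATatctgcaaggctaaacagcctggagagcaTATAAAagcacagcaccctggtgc
Irx2, chr13:72628570-72628819, plus strand: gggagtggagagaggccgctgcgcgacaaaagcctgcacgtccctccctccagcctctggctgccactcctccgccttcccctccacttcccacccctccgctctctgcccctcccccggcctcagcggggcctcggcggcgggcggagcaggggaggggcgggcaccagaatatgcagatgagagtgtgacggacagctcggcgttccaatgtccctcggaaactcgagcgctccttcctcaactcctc
Kcnj3, chr2:55435720-55435969, plus strand: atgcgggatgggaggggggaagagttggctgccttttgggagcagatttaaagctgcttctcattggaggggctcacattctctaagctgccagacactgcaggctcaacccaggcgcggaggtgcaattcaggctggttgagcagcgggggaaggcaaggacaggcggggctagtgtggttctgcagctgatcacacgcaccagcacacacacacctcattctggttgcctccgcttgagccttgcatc
Slc38a5, chrX:8271131-8271380, plus strand: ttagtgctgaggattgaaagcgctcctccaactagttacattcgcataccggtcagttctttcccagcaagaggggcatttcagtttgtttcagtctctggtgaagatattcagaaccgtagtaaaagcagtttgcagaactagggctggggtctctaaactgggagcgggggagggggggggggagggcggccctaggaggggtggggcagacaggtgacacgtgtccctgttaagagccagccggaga
The Gcg window alone among these held any of the capitalised letters. Positions are those of the leftmost base, with −1 for the base just before the start. TATAAA was at −24 and, on the other strand, at −72. TATTTAC was at −89 and, on the other strand, at −194. TAAT was at −57 and, on the other strand, at −91, where it overlapped the TATTTAC at −89. Of 32851 promoter windows of the same length, 54.9% held TAAT, 2.73% TATTTAC, 3.17% TGTTTAC and 12.4% TATAAA on either strand. The E-box letters CANNTG, which are the same on both strands, were found 3 times in Gcg, 3 times in Dpp10 (65.2% G and C, not printed), once each in Irx2 and Kcnj3 and 2 times in Slc38a5, against 66.2% of windows with any. The full cyclic AMP site TGACGTCA was in none of the 4 and in 1.55% of windows. Of the 5 windows, that of Gcg was the poorest in G and C, at 44.8%, beside 68.4% in Irx2, 58.4% in Kcnj3, 55.2% in Slc38a5 and a median of 52.4% over all windows. Of the 8 members, 5 had an entry in the promoter table.

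**Figure D1:**
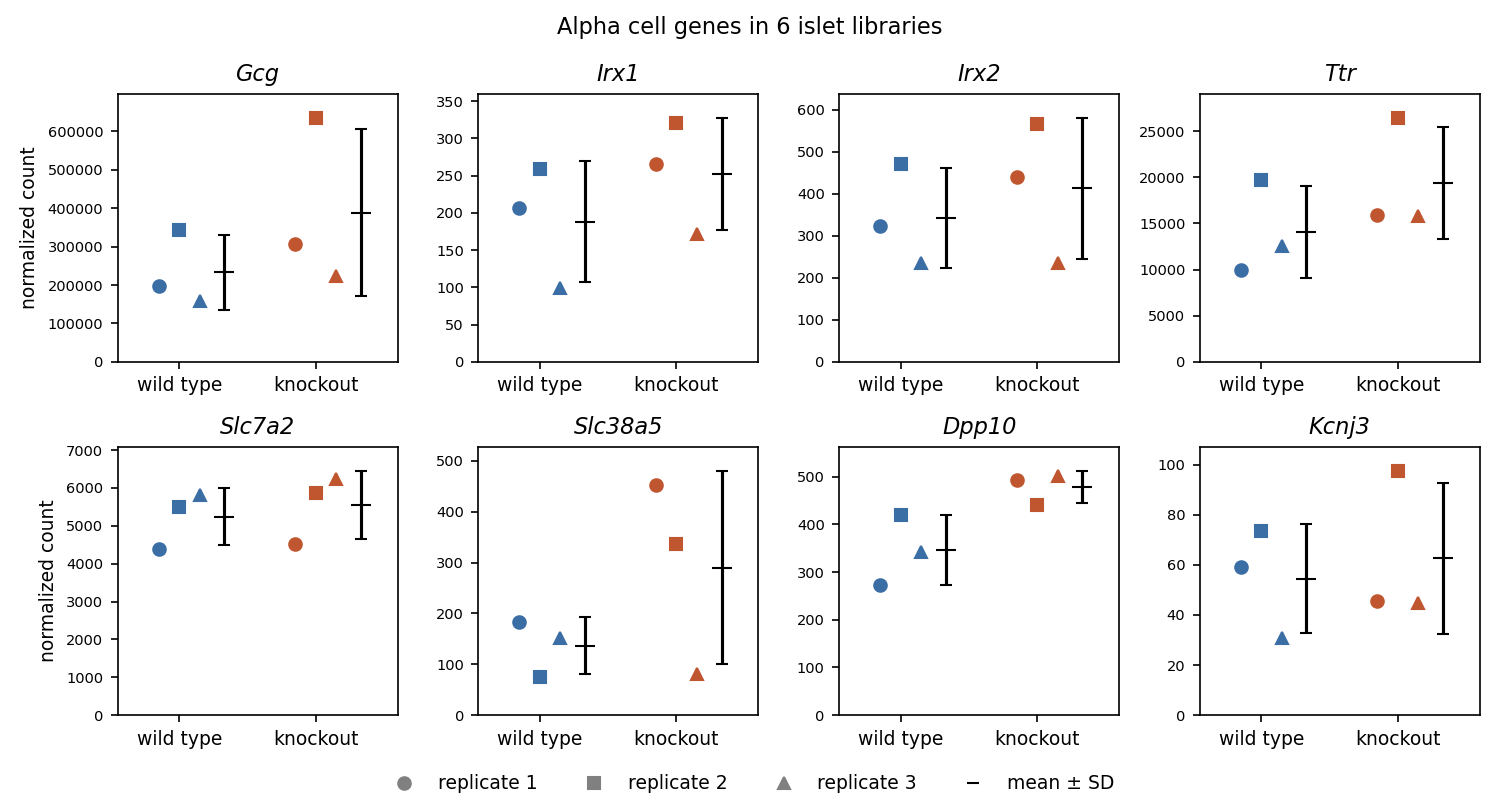
Normalized count of each of the 8 alpha cell genes in wild type (blue) and knockout (orange) libraries, with symbols for replicates and the mean ± SD (n = 3) in black at the right of each group. Each vertical axis is linear and starts at 0. The groups overlap in every panel except Dpp10, and replicate 2 is the highest of its group for Gcg, Irx1, Irx2, Ttr and Kcnj3.

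Set against the insulin genes of the same library, which removes any effect of scaling between libraries, glucagon gave the same picture. The ratio of Gcg to the sum of Ins1 and Ins2 was 0.0872, 0.146 and 0.0502 (wild type) against 0.137, 0.310 and 0.0780 (knockout). Knockout replicate 2 alone lay outside the wild type range. The mean log2 ratio was −3.54 ± 0.77 (SD, n = 3) for wild type and −2.75 ± 1.0002 (SD, n = 3) for knockout, a difference of 0.79 (two-sided exact permutation p = 0.5, where 0.1 is the smallest that 3 against 3 can give). The insulin genes exceeded Gcg 11.5-fold, 6.86-fold and 19.9-fold in the wild type and 7.32-fold, 3.23-fold and 12.8-fold in the knockout libraries, in replicate order. Without knockout replicate 2 the difference in log2 ratio was 0.26.

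Gcg also made up 7.90%, 12.5% and 4.72% of the summed values of 6 hormone genes (Gcg, Ins1, Ins2, Sst, Ppy and Pyy) of the wild type libraries. Its share of the knockout libraries was 11.8%, 23.1% and 7.13%. The exact 95% intervals (Clopper-Pearson, counting error only) were at most 0.0964 percentage points wide, so counting error was far smaller than the spread between libraries. The group means were 8.38% ± 3.92 (SD, n = 3) and 14.0% ± 8.20 (SD, n = 3), with a two-sided exact permutation p of 0.5. Against the other minor hormones the genotypes lay closer. The log2 ratio of Gcg to Sst, the somatostatin gene, differed by 0.48 (exact permutation p = 0.5, n = 3), that to Ppy, the pancreatic polypeptide gene, by 0.24 (exact permutation p = 0.7, n = 3), and that to Pyy, the peptide YY gene, by 0.069 (exact permutation p = 1, n = 3). These p-values are raw over 7 related ratio and share comparisons, and the smallest of them was 0.5. Ppy and Pyy were themselves higher in knockout libraries. Ppy was at 10912, 12169 and 8741 (wild type) against 12708, 17430 and 13066 (knockout). Pyy was at 5431, 8076 and 6022 (wild type) against 8568, 12270 and 8859 (knockout). For each, all knockout values lay above all wild type values, as in 3.85% of the genes tested.

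**Figure D2:**
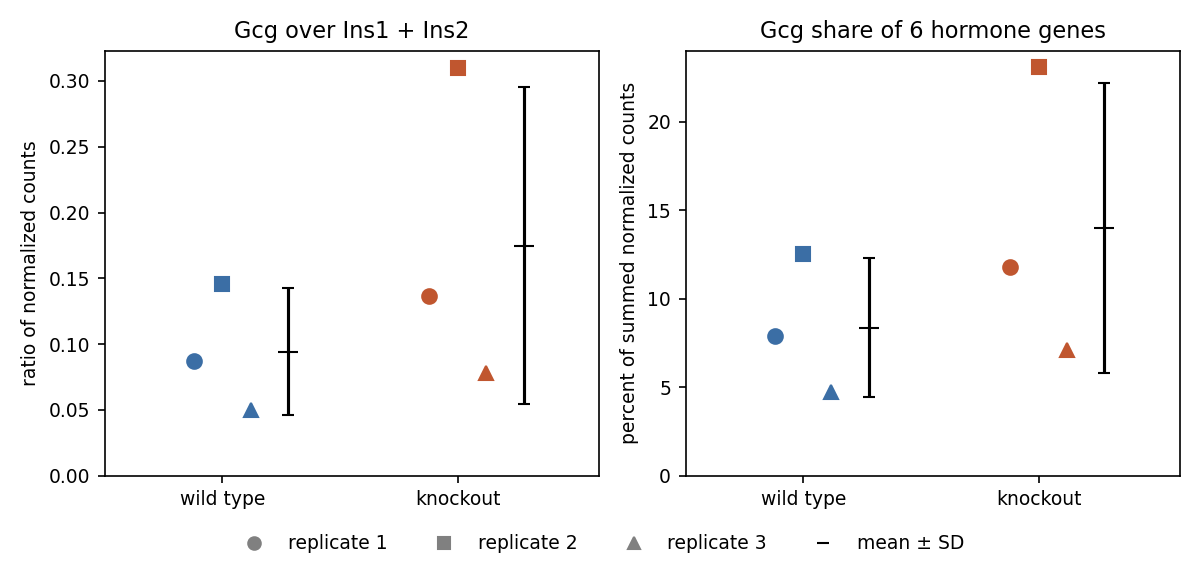
Ratio of Gcg to the summed insulin genes (left) and Gcg as a percent of 6 summed hormone genes (right), 1 point per library, with the mean ± SD (n = 3) in black. Both axes are linear and start at 0. Knockout replicate 2, at a ratio of 0.310 and a share of 23.1%, is the only knockout library outside the wild type range.

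The members spanned a wide range of levels. Per kilobase of annotated exon (GENCODE M21), Gcg had a level of 155846 ± 65919 (SD, n = 3) in wild type libraries, and Ttr, the carrier of thyroxine and of retinol-binding protein, one of 11858 ± 4238 (SD, n = 3). Slc7a2, a transporter of arginine and lysine, followed at 574 ± 82.2 (SD, n = 3). The transcription factor genes Irx2 and Irx1 were at 105 ± 36.2 (SD, n = 3) and 71.9 ± 31.1 (SD, n = 3), and Slc38a5, a glutamine transporter, at 60.9 ± 24.8 (SD, n = 3). The ranges of mean ± SD of these 3 neighbours overlapped, but the genes share libraries and their order within libraries was not tested. Dpp10, a partner of Kv4 potassium channels, was at 21.9 ± 4.65 (SD, n = 3) and Kcnj3, the Kir3.1 subunit of G-protein-gated potassium channels, at 10.5 ± 4.18 (SD, n = 3). In knockout libraries the levels per kilobase had nearly the same order, with Slc38a5 at 129 ± 84.5 (SD, n = 3) beside Irx2 at 126 ± 51.0 (SD, n = 3) and Irx1 at 96.3 ± 28.7 (SD, n = 3).

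The paired Iroquois factors Irx1 and Irx2, homeodomain proteins that in the islet are typical of alpha cells, had overlapping groups. Irx1 was at 207, 260 and 99.4 (wild type) against 265, 320 and 171 (knockout). Knockout replicates 1 and 2 lay above all wild type libraries and knockout replicate 3 below wild type replicates 1 and 2. Irx2 was at 323, 471 and 236 (wild type) against 439, 566 and 234 (knockout). Its highest and lowest values both came from knockout libraries, so the groups overlapped over the whole wild type range. The log2 fold change was 0.48 (SE 0.40) for Irx1 and 0.23 (SE 0.38) for Irx2, each with a limma adjusted p of 0.993. With single libraries left out, Irx1 ran from 0.077 to 0.76 and Irx2 from −0.039 to 0.60. Of the other Iroquois genes only Irx3 was in the table, at low values of 33.1, 40.7 and 21.1 (wild type) against 71.2, 41.2 and 47.8 (knockout), a log2 fold change of 0.75 (SE 0.36, limma adjusted p = 0.993).

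Ttr, abundant in alpha cells and also made by other islet endocrine cells, was at 9962, 19671 and 12558 (wild type) against 15887, 26435 and 15860 (knockout). All 3 knockout libraries were above wild type replicates 1 and 3, and 1 was above wild type replicate 2. Its means were 14064 ± 5026 (SD, n = 3) and 19394 ± 6098 (SD, n = 3), with a log2 fold change of 0.48 (SE 0.31, limma adjusted p = 0.993). Kcnj3 was at 59.1, 73.6 and 30.8 (wild type) against 45.4, 97.4 and 44.9 (knockout). Here 2 of the 3 knockout libraries lay within the wild type range, and the log2 fold change was 0.18 (SE 0.45, limma adjusted p = 0.993). It turned to −0.18 without knockout replicate 2 and to −0.17 without wild type replicate 3.

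Dpp10 was the member with separate groups. This inactive relative of the dipeptidyl peptidases was at 274, 420 and 343 (wild type) against 493, 441 and 502 (knockout). Its lowest knockout value lay just above the highest wild type value. Wild type averaged 346 ± 73.3 (SD, n = 3) and knockout 479 ± 32.98 (SD, n = 3), a log2 fold change of 0.49 (SE 0.18) or 1.40-fold. Its unadjusted limma p was 0.0289 and its adjusted p 0.993. That is 1 of 8 members with all knockout values above all wild type values, beside 3.85% of all genes tested, and 1.72% of all genes were higher at an unadjusted p under 0.05. The log2 fold change stayed between 0.33 and 0.64 with single libraries left out, the narrowest range relative to its size among the members.

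The amino acid transporter genes did not move alike. Slc7a2 was at 4391, 5508 and 5819 (wild type) against 4529, 5869 and 6236 (knockout). Its log2 fold change of 0.079 (SE 0.16, limma adjusted p = 0.993) was the smallest among the members, and the highest and lowest libraries differed 1.42-fold. Slc38a5 was at 182, 74.6 and 152 (wild type) against 452, 337 and 81.7 (knockout). Knockout replicates 1 and 2 lay above all wild type libraries, and knockout replicate 3 lay below wild type replicates 1 and 3. Its log2 fold change of 0.86 (SE 0.67, limma adjusted p = 0.993) was the largest among the members and also among the least certain, and the libraries differed 6.06-fold.

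Slc38a5 moved with the acinar RNA. Both were highest in knockout replicate 1, followed by knockout replicate 2, wild type replicate 1 and wild type replicate 3, and both were lowest in wild type replicate 2 and knockout replicate 3. The SD of its log2 ratio over the 6 libraries was 0.81 to the summed acinar genes, 1.02 to Gcg and 1.19 to the insulin genes. Its own log2 level had an SD of 1.04. For the other 6 members besides Gcg the ratio to the acinar sum was the least steady, with SDs from 1.62 to 1.93. The log2 acinar sum itself ranged from −2.35 to 2.45 about its mean. Any gene that changes little is therefore least steady against it, and those SDs carry no further meaning. With the mean log2 level of the acinar genes as a covariate, its log2 fold change was 0.37 (limma adjusted p = 0.999), and without knockout replicate 1 it was 0.38 (limma adjusted p = 0.9997).

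**Figure D3:**
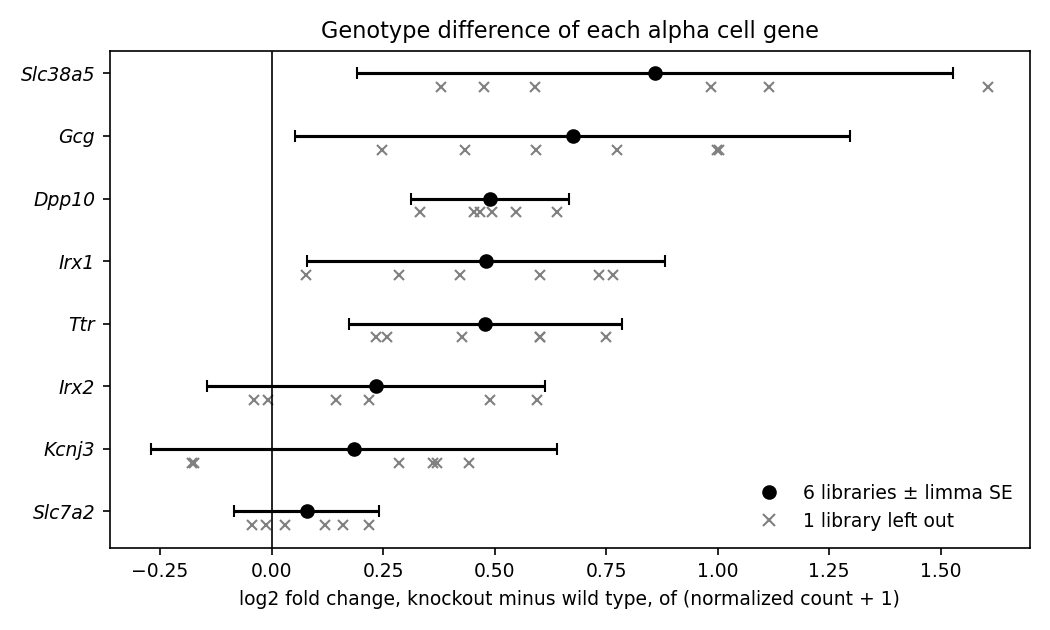
Log2 fold change (knockout minus wild type) of each alpha cell gene with limma's SE in black, and the values with each library left out in turn as gray crosses. All 8 points lie above 0, from 0.079 for Slc7a2 to 0.86 for Slc38a5, while crosses of Irx2, Kcnj3 and Slc7a2 fall on both sides of 0.

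Counted over the members, all 8 had a log2 fold change above 0, with a median of 0.48, where 7922 of the 16042 genes tested were above 0 and the median was −0.0030. Some markers of cells outside the endocrine islet also lay mostly above 0, with 16 of 17 acinar (median 0.86) and 5 of 5 lymphocyte genes (median 2.31). The same held for 5 of 7 duct (median 0.49) and 6 of 7 endothelial genes (median 0.28). Others did not, with 4 of 7 macrophage (median 0.067), 4 of 8 stellate cell and fibroblast (median 0.00016) and 0 of 3 Schwann cell genes (median −0.24) above 0. With the mean log2 level of the acinar genes as a covariate, all 8 members stayed above 0, with a median of 0.39. The part of these cell types in the common sign of the members was not tested, and that covariate fit on 6 libraries does not decide it. None of the 8 passed limma at an adjusted p under 0.05, where 0.0% of all genes passed. At an unadjusted p under 0.05 limma had 1 member, Dpp10, beside 494 of 16042 genes (3.08%). The same gene was the 1 member whose groups did not overlap in either direction, beside 9.08% of all genes. Run on recovered whole reads, edgeR (quasi-likelihood) gave 0 calls at an adjusted p under 0.05 (0.0%) and 509 genes (3.17%) at an unadjusted one. DESeq2 (Wald test) gave 13 calls (0.081%), with 0 members among them, and 576 genes (3.59%) at an unadjusted p under 0.05. The members share libraries and several move together, so their common sign is not 8 separate observations. With a library left out, between 6 and 8 members stayed above 0. It was 6 without knockout replicate 2, the library with the highest Gcg, and 6 without wild type replicate 3, the one with the lowest.

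Library by library, the members fell into those that kept pace with Gcg and those that did not. Steadiness was measured as the SD of the log2 ratio of a gene to Gcg over the 6 libraries, a description without a test. Log2 Gcg itself had an SD of 0.71, which is the value a gene at a constant level would show. The SD was 0.34 for Irx2, 0.34 for Ttr, 0.37 for Irx1 and 0.37 for Kcnj3. Among 11508 genes (those with a mean value of at least 100, and the members) these ranked 10, 11, 15 and 16. While Gcg differed 4.03-fold between its highest and lowest library, the ratio of Irx2 to Gcg differed 1.85-fold and that of Ttr to Gcg 1.91-fold.

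Dpp10, at an SD of 0.63, ranked 905 and Slc7a2, at 0.71, ranked 3591, with Slc7a2 at the value of a gene that does not change. The log2 ratio to the insulin genes had an SD of 0.23 for Slc7a2 and 0.42 for Dpp10. The log2 insulin sum itself varied little, from −0.26 to 0.35 about its mean, so a gene at a constant level would also have a low SD. The log2 levels of Slc7a2 and Dpp10 alone had SDs of 0.21 and 0.34. Neither gene was therefore shown to follow insulin. Slc38a5, at an SD of 1.02, ranked 10951. The libraries share their scaling and their composition, and with 6 of them an order can arise in many ways. All 4 genes that kept pace were highest in knockout replicate 2, as Gcg was.

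**Figure D4:**
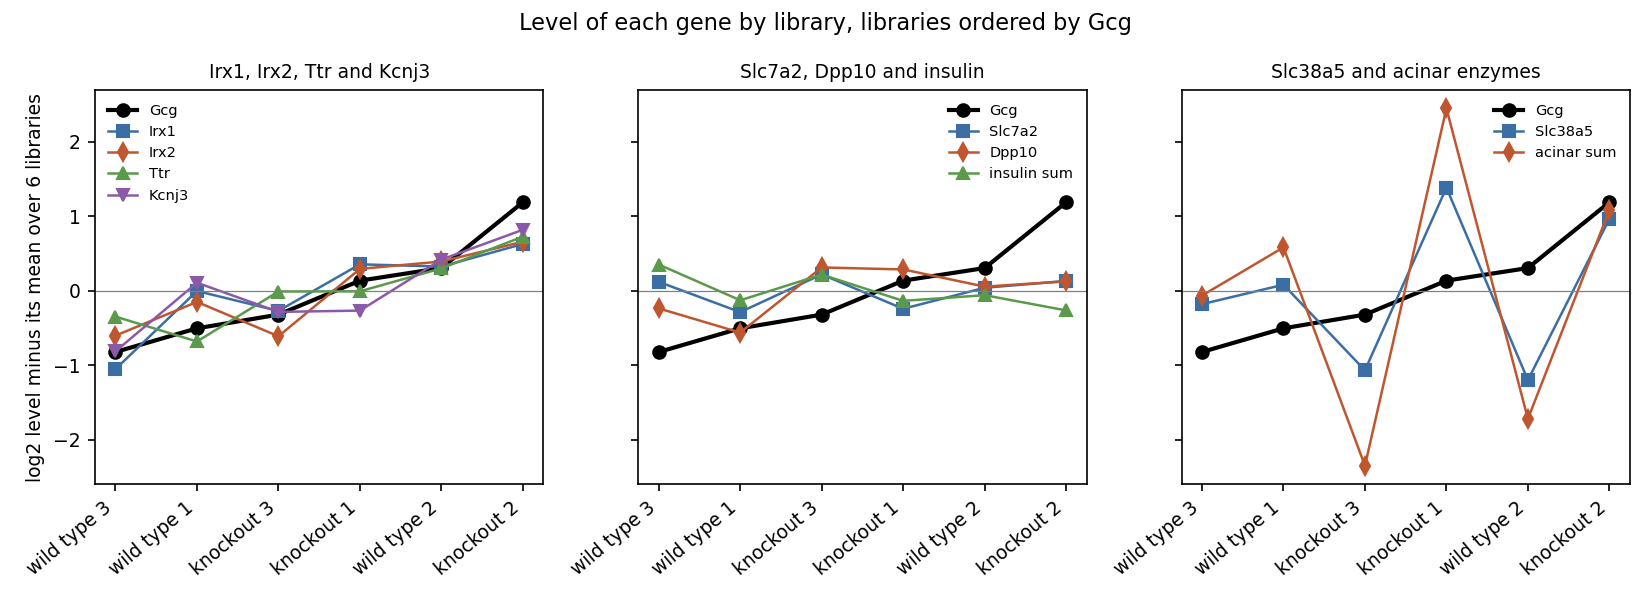
Log2 level of each gene minus its mean over the 6 libraries, with libraries ordered from lowest to highest Gcg (black in every panel). Irx1, Irx2, Ttr and Kcnj3 tend to rise with Gcg in the left panel, though none does so at every step, and each is highest in knockout replicate 2. In the middle panel Slc7a2 (−0.28 to 0.22) and Dpp10 (−0.56 to 0.32) span less than Gcg (−0.82 to 1.19). Slc38a5 in the right panel peaks with the summed acinar genes in knockout replicate 1.

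**Figure D5:**
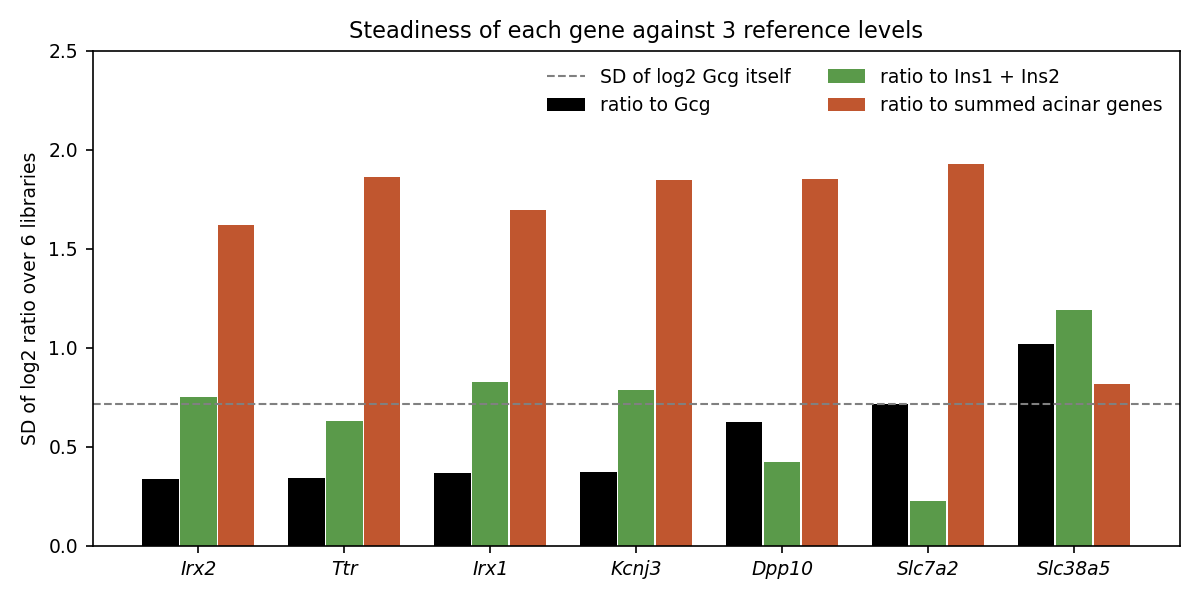
SD over 6 libraries of the log2 ratio of each gene to Gcg (black), to the summed insulin genes (green) and to 17 summed acinar genes (orange). The dashed line is the SD of log2 Gcg itself, 0.71; Irx2, Ttr, Irx1 and Kcnj3 have black bars from 0.34 to 0.37, and Slc38a5 is the gene whose orange bar is its lowest.

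Outside the members, the genes most like Gcg by the same measure were Gpx3, Ntn4, Rcn3, Lyve1, Cd9, Rfx3, Ptprk, Klb and Peg10, with SDs from 0.14 to 0.36. Gpx3, a secreted glutathione peroxidase, ranked 1. It was at 3698, 5682 and 3485 (wild type) against 5674, 11389 and 4375 (knockout), the same order of libraries as Gcg, with an SD of 0.14. Rfx3, a factor of endocrine differentiation, had an SD of 0.32, and Klb, the coreceptor of fibroblast growth factor hormones, one of 0.33. None of these 9 passed limma (adjusted p = 0.993 for each).

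Other alpha cell markers were mixed. Of 9 counted here, 8 were tested, 0 passed in either direction, and 5 had a log2 fold change above 0 and 3 below, with a median of 0.30. Gc, the vitamin D carrier of plasma and an alpha cell marker, went the other way from the members. It was at 2856, 2376 and 3431 (wild type) against 1950, 1715 and 2182 (knockout). All knockout values lay below all wild type values, as in 5.22% of the genes tested, with a log2 fold change of −0.56 (SE 0.16, limma adjusted p = 0.993). The unadjusted limma p of Gc was 0.0097, lower than that of any member, where 3.08% of all genes were under 0.05 in either direction. Gc was lowest in knockout replicate 2, where Gcg was highest. Sv2b, a vesicle protein, had a log2 fold change of 0.61 (SE 0.26, limma adjusted p = 0.993).

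Genes around the members were taken from 11 lists with 102 genes tested, and 0 of the 102 passed limma in either direction, where 0.0% of all genes did. All knockout values lay above all wild type values for 3 of the 102 (Irx3, Gcgr and Kcnd2), beside 3.85% of all genes, and below them for 6 (Gc, Plce1, Foxa2, Insm1, Lamtor1 and Gnb1), beside 5.22%; Plce1 and Gnb1 are named only for this count, after their values were seen. The endocrine transcription factors had 7 of 11 above 0 and 4 below, with a median log2 fold change of 0.055. Foxa2, a forkhead factor that opens islet enhancers, was at 2157, 2369 and 2371 (wild type) against 1135, 1710 and 2108 (knockout), with separate groups as in 5.22% of all genes (log2 fold change −0.52, SE 0.22, limma adjusted p = 0.993). Insm1, a zinc finger factor, also had separate groups, with a log2 fold change of −0.35 (SE 0.16). The prohormone processing genes that convert and pack the glucagon precursor had 5 of 11 above 0, a median of −0.033 and no separate groups. Among them Vgf, a granin-like precursor, was at −0.53 (SE 0.28) and the granin Chgb at 0.066 (SE 0.16).

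Receptors for glucagon and its relatives had 3 tested members, 2 of them above 0. Gcgr, the glucagon receptor, was at 393, 444 and 477 (wild type) against 515, 477 and 728 (knockout), with the lowest knockout value barely above the highest wild type value (log2 fold change 0.37, SE 0.18, limma adjusted p = 0.993). Gipr, the receptor of the incretin GIP, was at 0.44 (SE 0.25). The 9 receptors of alpha cell inputs had a median of 0.18 with 6 above 0, including Insr, the insulin receptor (0.18, SE 0.11), and Epha4, an ephrin receptor (0.54, SE 0.36).

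The 17 other amino acid transporters had a median log2 fold change of 0.069, with 9 above 0 and 8 below. Slc7a8, a carrier of neutral amino acids, was at −0.21 (SE 0.10) and Slc38a6 at −0.24 (SE 0.25). The amino acid sensing genes of the growth kinase mTOR had 3 of 14 above 0 and a median of −0.078, with Lamtor1, a lysosomal anchor, at −0.22 (SE 0.10) with separate groups, and the GTPase gene Rragc at −0.13 (SE 0.10). For the partners of Dpp10, its own family and the Kv4 channel, 6 of 12 were above 0 and the median was −0.0069. Kcnd2, a pore subunit that Dpp10 modulates, was at 17.0, 22.3 and 14.1 (wild type) against 27.0, 35.6 and 27.9 (knockout), separate groups at low values, as in 3.85% of all genes (log2 fold change 0.74, SE 0.32, limma adjusted p = 0.993), and Dpp8 was at −0.15 (SE 0.10).

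The list around Kcnj3, of other channel subunits and Gi/o proteins, had 4 of 8 above 0 and a median of 0.024, with Gnai1, an inhibitory G-protein subunit, at 0.78 (SE 0.38) and Rgs4, which shortens such signals, at 0.46 (SE 0.29). Retinol and thyroid hormone genes, grouped for Ttr, had 5 of 8 above 0 and a median of 0.082. Rbp4, the retinol carrier that travels with Ttr, was at 0.27 (SE 0.21) and the thyroid hormone receptor gene Thra at 0.16 (SE 0.20). None of the genes named from these lists passed limma over all genes (adjusted p = 0.993 for each).

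Markers of the other islet cells stood as follows. The 10 beta cell markers had a summed value from 2601539 to 3558069 in wild type and from 2383081 to 3258244 in knockout libraries, with 9 of 10 log2 fold changes below 0 and a median of −0.13. The 3 PP and epsilon cell markers summed to between 14791 and 20260 in wild type and between 21308 and 29714 in knockout libraries, highest in knockout replicate 2, as Gcg was. Of these 3, 2 had all knockout values above all wild type values, beside 3.85% of all genes tested. The same number were higher at an unadjusted limma p under 0.05, beside 1.72%, and 0 passed at an adjusted p under 0.05. The 4 delta cell markers ranged from 23420 to 29017 and from 24534 to 37884. Their part in the Gcg differences was not tested.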

How the data were processed

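RNA from islets, frozen and then extracted with Trizol, was sequenced in 6 libraries, and each table column was matched to its sample by the label of that sample. The aligner HISAT2 is named, with no version, per the submitters' processing notes. For the counting tool, genome build and strand setting, which were not given in the sources used here, nothing is assumed, so antisense or overlapping genes could share reads, and no coordinates of the reads are given. The deposited table holds normalized signal: read counts per gene, scaled by the authors with 1 factor for each library. This follows from the values, of which 100% in each library were whole multiples of 1 step within 0.01 reads. The table has 18437 genes and 0 values at zero.

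Testing used log2(value + 1), which understates changes at low levels, for the 16042 genes that reached 10 in 3 or more libraries. The contrast of knockout against wild type was fitted in limma 3.58.1 (R 4.3.3) with trend, two-sided, with Benjamini-Hochberg adjustment at 0.05. EdgeR 4.0.16 and DESeq2 1.42.0 ran on the recovered reads as alternatives. Single ratios were compared by exact permutation with scipy 1.17.1. Over all genes tested, the SE had a median of 0.199 on the log2 scale. Exon lengths are the union of GENCODE M21 exons, and promoters are those of RefSeq on GRCm38.p6.

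The members and lists were chosen with earlier results of these data known. Named were the 8 members, Gc, and in each of 11 lists the genes at an unadjusted p under 0.05 or, where fewer than 2 reached it, the 2 of smallest p. To these came 9 of the 10 genes steadiest against Gcg. Some genes that the rule names are not reported here, and the list counts leave them out. Irx3, alone in its list, was the exception to the count of 2. Replicates of a group differed far beyond sampling noise. The scripts were tested on simulated counts.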

Additional observations from a re-analysis of the deposited data

How the results depend on the processing

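The 17 alternatives changed pseudocount, filter, scaling, variance model, tool, covariate, replicate block or the libraries used, 1 at a time. No member passed in any of them, with adjusted p from 0.703 to 0.9998. Over all genes, DESeq2 called 13 where limma called 0, with 4384 adjusted p undefined. The median log2 fold change of the members was between 0.24 and 0.60 when 1 library was dropped. Of 48 such values of single members, 6 changed sign, namely Irx2 (range −0.039 to 0.60), Kcnj3 (−0.18 to 0.44) and Slc7a2 (−0.043 to 0.22), 2 times each. Of 126 values of other genes named from lists, 2 did, for Chgb (−0.041 to 0.14) and Thra (−0.026 to 0.29). No other alternative turned a sign. The Gcg to insulin difference ran from 0.26 to 1.26 and the difference in hormone share from 1.09 to 9.08 percentage points. Leaving out wild type replicate 1 lowered the SD of the Kcnj3 to Gcg ratio to 0.24, and leaving out knockout replicate 2 lowered that of Dpp10 to 0.39. Same-numbered libraries did not deviate together throughout (correlations of 0.43, 0.0037 and 0.37 for numbers 1, 2 and 3, and wild type replicate 2 correlated better with knockout replicate 3, at 0.20), so the numbers were not taken as pairs. With the replicate block limma called 0 genes and 0 members, but 864 genes had an unadjusted p under 0.05, against 494 without it. The unadjusted limma p with the block was 0.0080 for Ttr, 0.039 for Irx1 and 0.040 for Dpp10 (adjusted p = 0.837 for each). For the other members it ran from 0.11 (Gcg) to 0.56 (Kcnj3). The Gcg to insulin difference stayed at 0.79 (exact sign-flip permutation p = 0.25, n = 3, the smallest 3 pairs can give). The lowest value of any member was 30.8 (Kcnj3), and the share of depth in its spread was not tested.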

Other observations

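Among the genes of the 11 lists, other than the members, 5 had a ratio to Gcg about as steady as that of the Iroquois genes, and they were picked out after their values were seen. Avpr1b, the vasopressin receptor through which vasopressin releases glucagon, was at 62.2, 199 and 40.4 in wild type and at 108, 244 and 105 in knockout replicates 1, 2 and 3. That is the order of libraries seen for Gcg, and the SD of the log2 ratio was 0.40. Sstr2, the somatostatin receptor of alpha cells, was at 52.1, 126 and 40.4 in wild type and at 129, 154 and 52.8 in knockout replicates 1, 2 and 3, with an SD of 0.34. Kcnip3, a Kv4 partner, had an SD of 0.37, Kcnd2 one of 0.41 and Gnai1 one of 0.43. None of the 5 passed limma between genotypes (adjusted p = 0.993 for each).

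Slc38a3, Slc43a1, Slc38a1 and Stra6 had a less variable ratio to the acinar sum than to Gcg, as Slc38a5 did, and were also picked out after their values were seen. Slc38a3, a glutamine transporter of the same family, was at 43.1, 60.0 and 63.3 in wild type and at 329, 136 and 15.9 in knockout replicates 1, 2 and 3. The SD of its log2 ratio was 0.90 to the acinar sum and 1.28 to Gcg. Slc43a1, a carrier of large neutral amino acids, was at 29.1, 2.90 and 2.64 in wild type and at 51.5, 14.99 and 2.99 in knockout replicates 1, 2 and 3, with SDs of 0.92 and 1.67. Slc38a3 and Slc43a1 were highest in knockout replicate 1, where acinar RNA was highest, but neither kept the order of the acinar sum over the libraries. Slc38a3 was lowest of its group in wild type replicate 1, the acinar-richest wild type library, and 3 values of Slc43a1 were under 3. Slc38a1 had SDs of 1.33 to the acinar sum and 1.37 to Gcg, and Stra6, from the retinol list, 1.47 and 1.75. Both of these were highest in wild type replicate 1, Slc38a1 at 849 and Stra6 at 95.2.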
